A study of Mus musculus with 4 samples.

Results

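The with-no-lysine (WNK) kinases, the kinases SPAK and OSR1 that they activate, and the KLHL3-CUL3 ubiquitin ligase that removes WNKs were followed in mDCT cells. These cells are an immortalised murine line of the distal convoluted tubule. The 9 genes are Wnk1, Wnk2, Wnk3, Wnk4, Stk39 (SPAK), Oxsr1 (OSR1), Klhl3, Klhl2 and Cul3. A probe set was taken for a gene where the platform annotation gave that gene's symbol and no other. This found 19 probe sets for 8 of the 9 genes, out of 45101 probe sets and 18193 named genes on the array, and found none for Klhl3, which is not analysed here. All cells carried a plasmid that encodes the human mineralocorticoid receptor (MR) with a FLAG tag, introduced by lipofection 48 h before the treatments began. MR is the nuclear receptor through which aldosterone acts, and which promoter drives the plasmid is not stated. Every group had a pretreatment begun 2 h before a treatment of 3 h. The pretreatment was ethanol, the vehicle, in 3 groups, which then received ethanol, 1 nM aldosterone or 100 nM aldosterone. In the remaining group it was 5 µM spironolactone, an MR antagonist, followed by 100 nM aldosterone. This group is called the spironolactone group below, and no group received spironolactone without aldosterone. Each group is 1 array, so no difference can be set against replicate error, no test was possible, and every difference is between libraries.

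WNK kinases sense intracellular chloride and phosphorylate SPAK and OSR1, which in turn phosphorylate cation chloride cotransporters of the SLC12 family. In the distal convoluted tubule the chief target is the thiazide-sensitive sodium chloride cotransporter NCC, the product of Slc12a3, and the pathway is known for setting salt reabsorption and potassium balance. KLHL3 and its close relative KLHL2 are adaptors that bring WNK kinases to the CUL3 ubiquitin ligase for degradation. Inherited changes in WNK1, WNK4, KLHL3 and CUL3 cause familial hyperkalaemic hypertension. Aldosterone is known to act on the pathway partly through the kinase SGK1, and much of the control described for it lies in protein stability and phosphorylation, which an expression array does not measure.

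Sequence before the annotated starts was searched because MR binds DNA at a palindrome of AGAACA half-sites. RefSeq (GRCm38.p6) gave 1 window for each of the 9 genes, and the search covered the 250 bases before the start on both strands. The half-site AGAACA (reverse complement TGTTCT) was in 0 of the 9 windows and in 16.1% of all 32851 windows of that length, and the palindrome of that half-site and its reverse complement, 3 bases apart, was in 0 of 9 and in 0.00913%. The GC box GGGCGG (reverse complement CCGCCC) was in 6 of the 9, those of Wnk1, Wnk4, Stk39, Oxsr1, Klhl2 and Cul3, and in 32.7% of all windows. The element TGACGTCA, which reads the same on both strands, was in the Oxsr1 window and in 1.55% of all. The windows held from 30.4% G and C in Wnk3 to 82.4% in Stk39, where the median of all windows was 52.4%. Those of Wnk1 and Wnk4, the kinases with the widest spread between libraries in a probe set above the filter described below, are printed as far as they lie outside the annotated gene, 210 bases at chr6:120038696-120038905 on the minus strand and 220 bases at chr11:101260317-101260536 on the plus strand. Capitals mark GC boxes, 4 in Wnk1 and 2 in Wnk4. A match is a string of letters and not a binding site, and the absence of a half-site concerns these windows alone.
Wnk1: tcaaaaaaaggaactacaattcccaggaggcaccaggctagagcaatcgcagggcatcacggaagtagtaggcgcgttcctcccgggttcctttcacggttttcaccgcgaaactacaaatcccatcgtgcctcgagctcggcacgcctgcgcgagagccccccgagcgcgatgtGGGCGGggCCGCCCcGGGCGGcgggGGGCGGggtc
Wnk4: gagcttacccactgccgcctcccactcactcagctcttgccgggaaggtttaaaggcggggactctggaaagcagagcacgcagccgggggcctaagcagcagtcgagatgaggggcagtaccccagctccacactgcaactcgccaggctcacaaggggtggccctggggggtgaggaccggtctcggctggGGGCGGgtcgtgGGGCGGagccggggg

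The 4 libraries were alike in level, with medians from 58.7 to 61.5 and upper quartiles from 418 to 424 on the linear signal scale of the array. The ratio of 3' to 5' signal of the array's control probe sets, a sign of RNA integrity, lay between 0.741 and 0.783 for Gapdh and between 1.26 and 1.33 for beta-actin. The filter was the median over the array's probe sets of the mean log2 signal, which equals a signal of 55.9, and 11057 genes whose brightest probe set reached it entered the comparisons. In the same libraries Sgk1, the aldosterone-induced kinase upstream of WNK4, had signals of 801 in ethanol, 935 with 1 nM and 1810 with 100 nM aldosterone, and 1424 with spironolactone. Per1 and Tsc22d3, known hormone-induced genes, were likewise highest with 100 nM aldosterone alone, at 527 and 1365 against 231 and 711 in ethanol. Of 11 distal convoluted tubule markers on the array 5 entered (Pvalb, Trpm6, Cnnm2, Egf and Kcnj10), and the defining marker Slc12a3 did not, with signals of 3.93, 17.2, 12.1 and 4.35 in the order of the groups above. Of the markers of other cells, 5 of 6 for the proximal tubule entered, among them Lrp2 and Aqp1, 1 of 5 for principal cells (Hsd11b2), 0 of 4 each for the thick ascending limb and intercalated cells, 0 of 6 for fibroblasts, 1 of 5 for endothelium (Kdr), 1 of 4 for leukocytes (Cd68) and 3 of 6 for epithelium (Epcam, Cdh16 and Pax8). The remaining epithelial markers, Cdh1, Krt8 and Krt18, did not enter, with signals of at most 21.5, 56.8 and 45.5 in any library. The 5 entered markers of the labelled segment had signals between 38.3 and 208, and Pvalb lay under the filter in 2 libraries. Of the proximal tubule, Aqp1 was at least 2069 and Lrp2 at least 463. Its markers Slc34a1, Slc5a2 and Cubn were as dim as those of the labelled segment, between 44.6 and 106. Slc34a1 and Slc5a2 also fell under the filter in some libraries, and Slc22a6 did not enter. The markers thus do not set the distal convoluted tubule above the proximal tubule in these cells, and the name is that of the labels. The signals summed over the marker list of the distal convoluted tubule ran from 579 in ethanol to 706 with 100 nM aldosterone. Those of the proximal tubule, which rest mostly on Aqp1 and Lrp2, ran from 2850 to 3174 in the same libraries. Of the defining markers of other cells, Pecam1, Ptprc and Col1a1 did not enter. The part of such shifts in the values below was not tested.

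Among the WNK kinases, Wnk1 differed in the spironolactone library, in opposite directions in its 3 probe sets. Wnk1 encodes the widely expressed WNK kinase, of which the kidney also makes a shorter form without a kinase domain, and the forms were not told apart here. Its brightest probe set, 1433676_at, had signals of 6887 in ethanol, 7413 at 1 nM and 6878 at 100 nM aldosterone, and 8372 with spironolactone. Spironolactone was the highest of the 4, by 0.28 on the log2 scale above 100 nM aldosterone alone and by 0.28 above ethanol, while 100 nM aldosterone and ethanol differed by 0.00. Among the 501 genes nearest to Wnk1 in mean signal, itself included, 6 differed as much or more in either direction between spironolactone and 100 nM aldosterone.

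The other Wnk1 probe sets were lowest in that library. The second, 1436746_at, had signals of 808, 693, 691 and 604 in the same order, so that ethanol was highest and spironolactone lowest, with a difference of -0.42 between them. The third and dimmest, 1437888_at, had signals of 104, 127, 107 and 50.7, and the last lies under the filter. It was therefore at least 1.92-fold lower with spironolactone than with 100 nM aldosterone alone. The direction of Wnk1 with spironolactone thus depends on the probe set, and the gap between the brightest and the next, 0.48 against 100 nM aldosterone, may be read beside a median gap of 0.16 and a 90th percentile of 0.54 over the 5218 genes with at least 2 probe sets above the filter. Against ethanol the same probe sets lay 0.70 apart, beyond the 90th percentile of 0.52 in that comparison.

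Wnk4, the WNK kinase most closely tied to NCC, spread most over the 4 libraries among the brightest probe sets of the 7 WNK-SPAK-CUL3 genes above the filter. Its only probe set had signals of 207 in ethanol, 247 at 1 nM and 209 at 100 nM aldosterone, and 159 with spironolactone. The library with 1 nM aldosterone was highest and that with spironolactone lowest, 1.56-fold apart, and ethanol and 100 nM aldosterone lay close together between them, 0.01 apart on the log2 scale. Spironolactone differed by -0.39 from 100 nM aldosterone alone and by -0.39 from ethanol. At the signal level of Wnk4 such differences were common, with 81 of 501 genes as large in the first comparison and 86 in the second.

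Wnk3, a WNK kinase best known from brain, also rests on 1 probe set. Its signals were 140 in ethanol, 155 at 1 nM and 117 at 100 nM aldosterone, and 158 with spironolactone. The library with 100 nM aldosterone alone was the lowest, by 0.25 under ethanol and 0.43 under spironolactone, and 217 and 111 of the 501 genes nearest in signal differed as much. Wnk2, a further neuronal member, did not enter: its brightest probe set had signals of 54.0, 32.0, 66.5 and 57.5 and the other 2 lay between 1.04 and 12.2, so no difference is read from it.

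**Figure D1:**
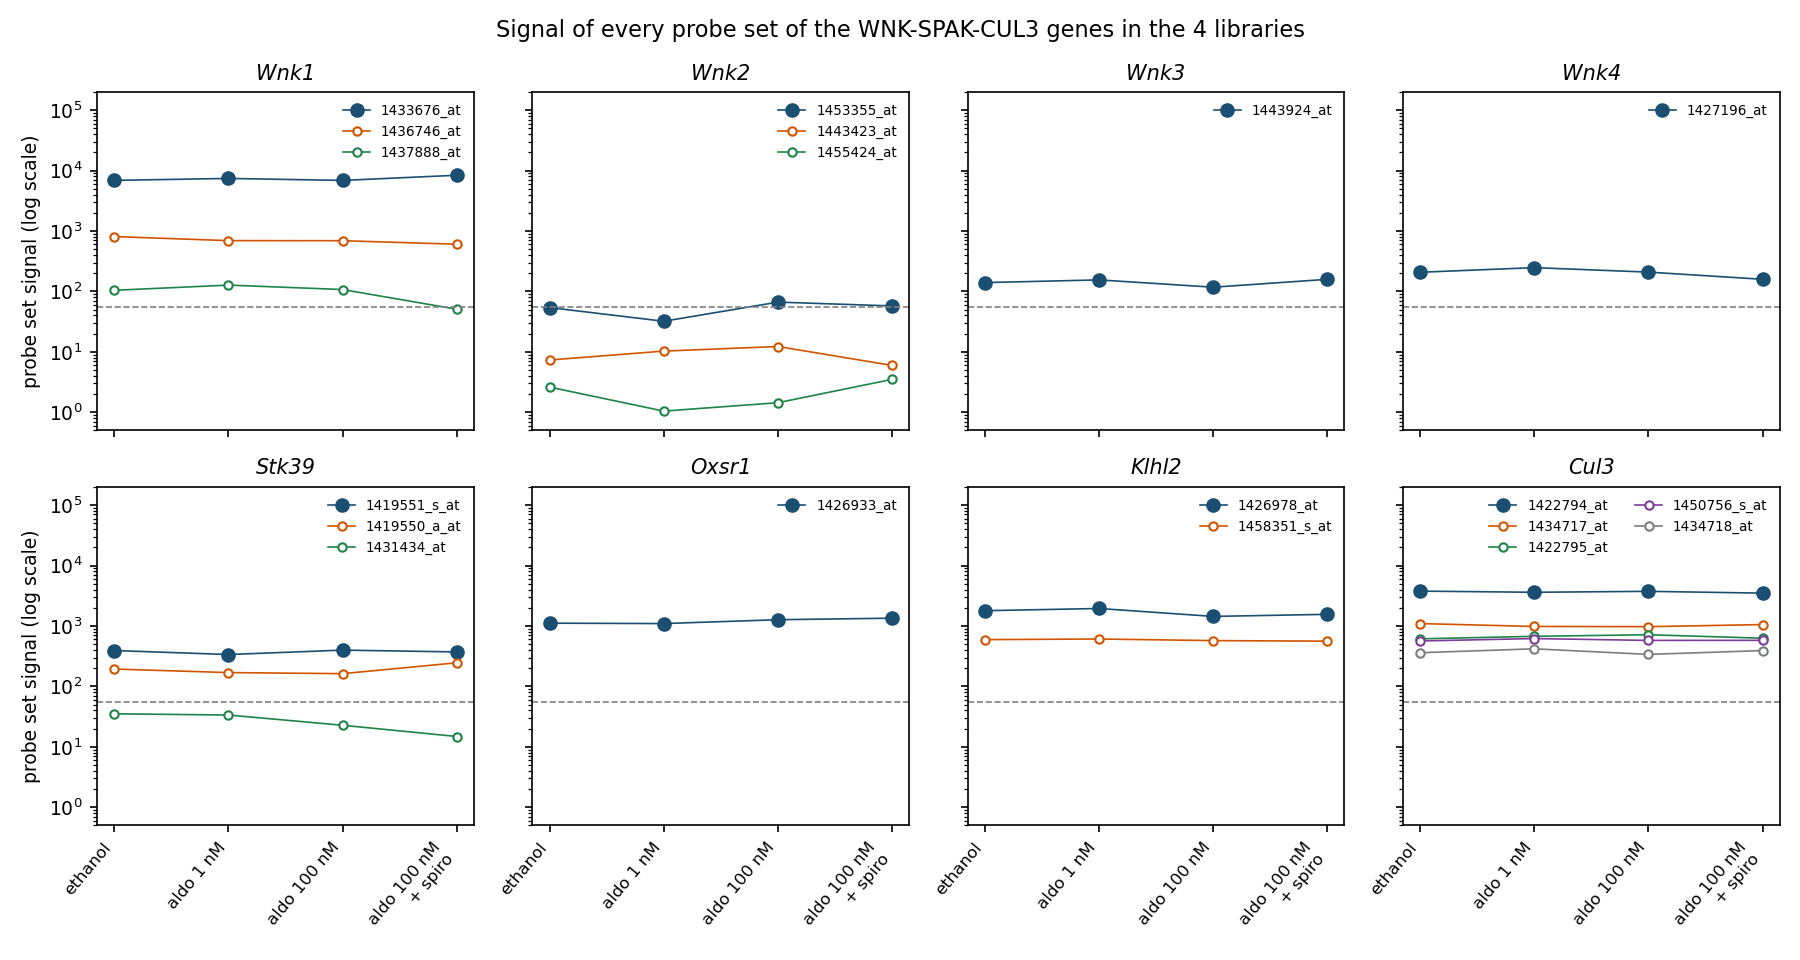
Signal of each of the 19 probe sets (vertical axis, linear array signal on a log scale) in the 4 libraries (horizontal axis, with aldo for aldosterone and spiro for spironolactone), 1 panel per gene and 1 array per point. Filled points are the brightest probe set, lines only join points of 1 probe set, and the dashed line is the filter at 55.9. The brightest probe sets vary little on this scale, and all 3 of Wnk2 lie near or under the filter.

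SPAK and OSR1, the kinases between the WNKs and the cotransporters, differed from ethanol by at most 0.25 on the log2 scale with 100 nM aldosterone in the probe sets above the filter. Oxsr1, which encodes the widely expressed OSR1, had signals of 1111 in ethanol, 1094 at 1 nM and 1268 at 100 nM aldosterone, and 1344 with spironolactone in its only probe set. Both libraries that received 100 nM aldosterone were higher than both others, by 0.19 without and 0.27 with spironolactone against ethanol. Of the 501 genes nearest in signal 72 and 23 differed as much.

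Stk39, which encodes SPAK, the form tied to NCC in the distal tubule, had signals of 392, 336, 398 and 371 in its brightest probe set, 1419551_s_at. The library with 1 nM aldosterone was lowest, by 0.22 under ethanol, and the other 3 lay within 0.10 of each other. The second probe set, 1419550_a_at, had signals of 193, 169, 162 and 246, with spironolactone highest and 1.51-fold above 100 nM aldosterone alone. Their differences in that comparison, -0.10 and 0.60, lay 0.70 apart, more than the 90th percentile of 0.54 over genes with several probe sets. The remaining probe set, between 14.8 and 35.1, lay under the filter in every library. A lower signal with 1 nM aldosterone than with ethanol was shared by both brighter probe sets, at -0.22 and -0.19. In that comparison the brightest and next probe sets shared a sign in 54.7% of the genes with several probe sets. Of the genes nearest in signal 27.5% differed as much as the brightest probe set. Of the probe sets nearest in signal 48.5% differed as much as the second.

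Of the ligase genes, Klhl2, the adaptor related to KLHL3, differed most. Its brightest probe set, 1426978_at, had signals of 1788 in ethanol, 1945 at 1 nM and 1438 at 100 nM aldosterone, and 1557 with spironolactone. Both libraries with 100 nM aldosterone lay under both others. The difference of 100 nM aldosterone from ethanol was -0.31, a 1.24-fold lower signal, and that from 1 nM aldosterone was -0.44, or 1.35-fold lower. As large a difference was found in 12 and 5 of the 501 genes nearest in signal. With spironolactone Klhl2 was 0.11 above 100 nM aldosterone alone and stayed 0.20 under ethanol. The second Klhl2 probe set, 1458351_s_at, had signals of 593, 608, 572 and 560, and the library with 100 nM aldosterone differed there by -0.05 from ethanol and by -0.09 from 1 nM, and spironolactone by -0.03 from 100 nM, so that the lower level with 100 nM aldosterone was much smaller there and spironolactone was not above it.

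Cul3, the scaffold of the ligase, varied least. Its brightest probe set, 1422794_at, had signals of 3771 in ethanol, 3607 at 1 nM and 3742 at 100 nM aldosterone, and 3489 with spironolactone, a span of 0.11 on the log2 scale. The other 4 probe sets spanned from 0.13 to 0.31 over the libraries. For 100 nM aldosterone against ethanol the 5 ran from -0.17 to 0.23, with 2 above 0 and 3 below, and for spironolactone against 100 nM aldosterone alone from -0.19 to 0.21. The probe sets of Cul3 thus shared no direction in either comparison.

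**Figure D2:**
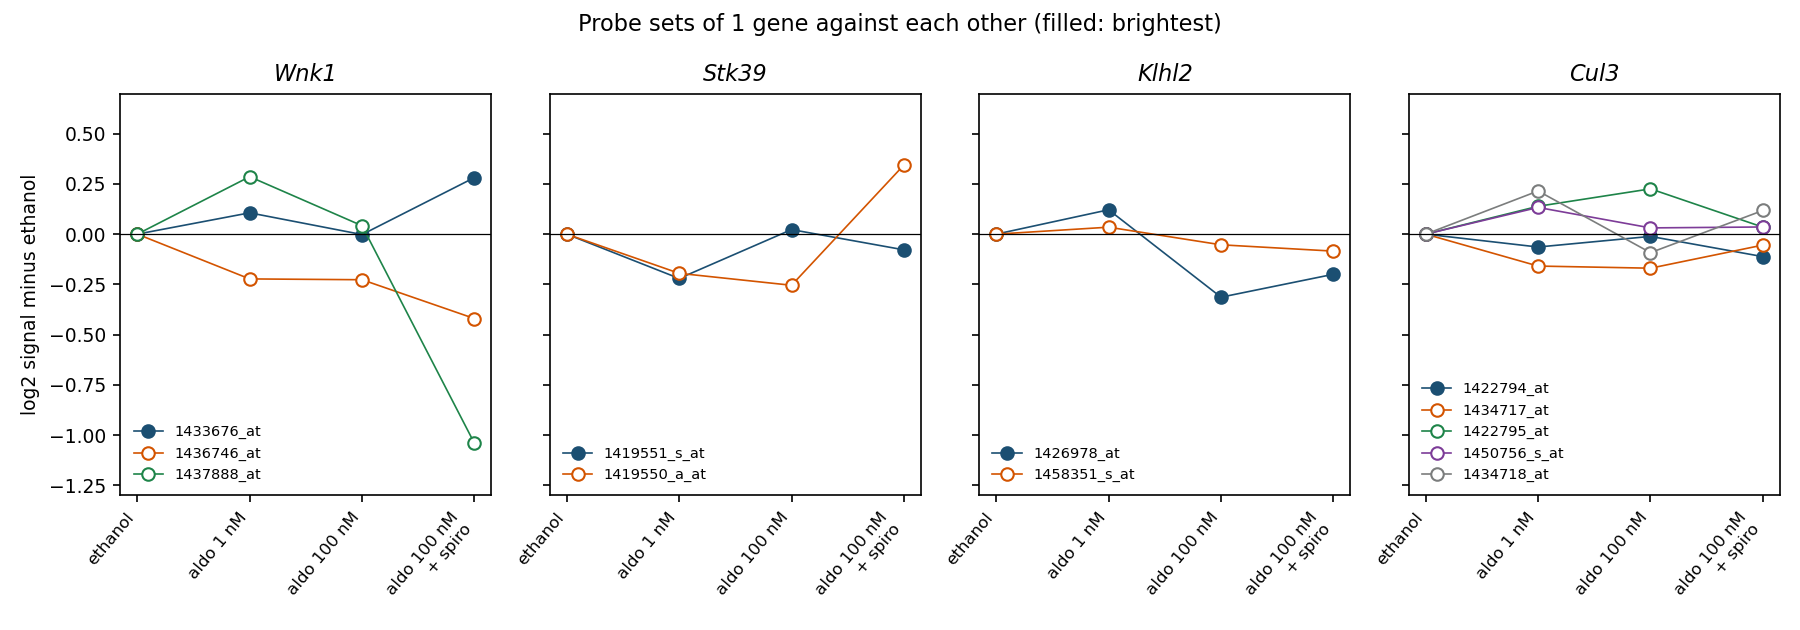
Difference of log2 signal from ethanol (vertical axis) in the 4 libraries (horizontal axis) for the probe sets above the filter of Wnk1, Stk39, Klhl2 and Cul3, with the brightest filled and 1 array per point. With spironolactone the brightest Wnk1 probe set lies at 0.28 and the next at -0.42, and the lowest point rests on a signal under the filter and shows only a level at least 1.87-fold lower than ethanol. In the same library the probe sets of Stk39 lie at 0.34 and -0.08, and the 5 of Cul3 between -0.11 and 0.12. With 100 nM aldosterone those of Cul3 run from -0.17 to 0.23.

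The library with 3 h of 100 nM aldosterone was first set against that with ethanol, each 1 array. By the brightest probe set, 0 of the 7 genes that entered were at least 1.5-fold higher and 0 lower, where 2.39% and 1.72% of the 11057 genes were. With so few genes, 0 of 7 is near that background and is not a result about the pathway. The median difference of the 7 genes was 0.00, as it was over all genes (0.00), and 3 were above 0 and 4 below. Wnk1, Wnk4, Stk39 and Cul3 differed by at most 0.02 in either direction, Oxsr1 was higher by 0.19, and Wnk3 and Klhl2 were lower by 0.25 and 0.31.

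With 1 nM aldosterone against ethanol, again 0 of 7 were 1.5-fold higher and 0 lower, where 2.61% and 2.07% of all genes were. The median was 0.11 against -0.01 over all genes. Wnk4 was the highest at 0.25, followed by Wnk3 at 0.15, Klhl2 at 0.12 and Wnk1 at 0.11, and Stk39 was the lowest at -0.22. The ethanol library is common to these first comparisons. Between the doses, 100 nM against 1 nM, 0 of 7 passed 1.5-fold in either direction (2.04% of all genes were higher and 1.96% lower). Here Klhl2 (-0.44), Wnk3 (-0.40) and Wnk4 (-0.25) were lower and Stk39 (0.24) and Oxsr1 (0.21) higher, with a median of -0.11.

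Between 100 nM aldosterone with and without the antagonist, the brightest probe sets lay within 1.5-fold of each other. Of the 7 genes, 0 were 1.5-fold higher and 0 lower, where 1.83% and 2.51% of all genes were, and the median was 0.08. Wnk3 (0.43) and Wnk1 (0.28) were the highest and Wnk4 (-0.39) the lowest. Over the 15 probe sets above the filter 1 was higher (the second of Stk39) and 1 lower (the third of Wnk1), where 2.65% and 2.96% of 19918 probe sets were. Spironolactone against ethanol again gave 0 of 7 in each direction (2.17% and 2.03% of all genes), with Wnk1 at 0.28, Oxsr1 at 0.27 and Wnk4 at -0.39. In the remaining pair, spironolactone against 1 nM aldosterone, Wnk4 was 1.56-fold lower, 1 of 7 where 2.66% of all genes were lower, and 0 of 7 were higher, where 1.75% were. Over these 42 values of 7 genes in 6 pairs of libraries, 5 lay among the largest 2% of the genes nearest in signal: Wnk1 with spironolactone against 100 nM aldosterone and ethanol, Klhl2 in both libraries with 100 nM aldosterone against 1 nM, and Wnk4 in the last pair. In those pairs the second probe set of Wnk1 differed the other way, by -0.19 and -0.42, and that of Klhl2 by only -0.09 and -0.12. Wnk4, with 1 probe set, lay at the edge of the limit, with 1.996% of the nearest genes differing as much. Among the probe sets nearest in signal 3.99% differed as much in that pair. Its range over the 4 libraries was reached by 13.4% of the nearest genes. That pair was not among the comparisons repeated under other settings. The 6 pairs share their libraries and are not independent.

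**Figure D3:**
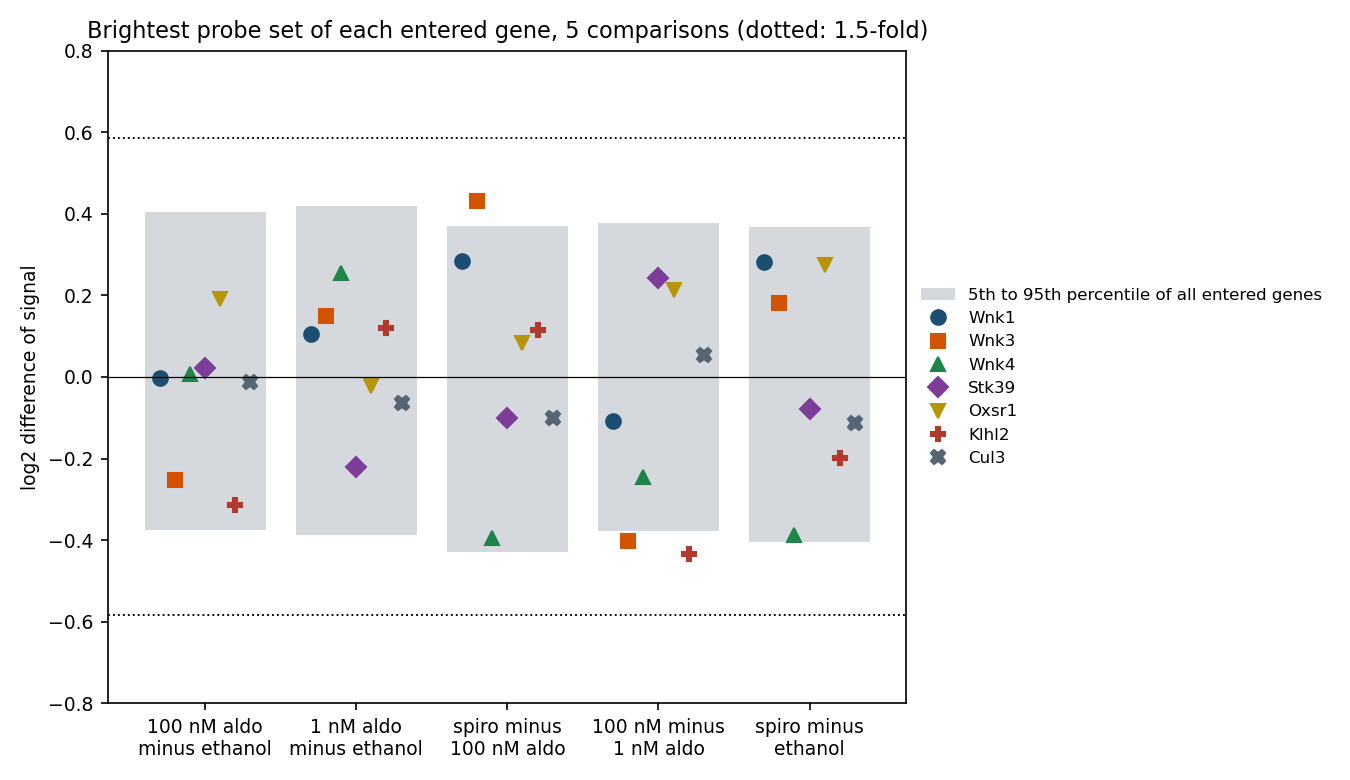
Difference of log2 signal (vertical axis) of the brightest probe set of the 7 genes that entered, in 5 comparisons (horizontal axis, where spiro is 100 nM aldosterone after spironolactone). Grey boxes hold the 5th to 95th percentile of the 11057 genes and dotted lines mark 1.5-fold. All points lie within the dotted lines, and Wnk3 at 0.43 with spironolactone and Wnk3 and Klhl2 at -0.40 and -0.44 between the doses lie outside the boxes.

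The genes whose course over the 4 libraries lay closest to that of Wnk4, by the distance between log2 signals less their own mean, were Vax2 (0.05), Entpd6 (0.05) and Mmp11 (0.06). Mmp11, for one, had signals of 260, 323, 276 and 208. Closest to Klhl2 were Elovl7 (0.05), Serpini1 (0.06) and Svip (0.06), and Elovl7 had signals of 900, 957, 730 and 804. Such likeness over 4 arrays is a description, and many genes can share an order of 4 values.

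Other genes of the pathway were taken from 7 lists. Of 111 genes 104 were on the array and 96 entered, each counted by its brightest probe set. With 100 nM aldosterone against ethanol 2 were at least 1.5-fold higher and 1 lower, or 2.08% and 1.04%, and with spironolactone against 100 nM aldosterone 0 were higher and 0 lower; the shares over all genes are those given above. With 1 nM aldosterone 3 were higher and 2 lower. With 100 nM against 1 nM aldosterone 3 were higher and 0 lower, and with spironolactone against ethanol 3 were higher and 1 lower. Slc12a8, Relt and Rbx1 among these lay near the filter in at least 1 library.

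Of the SLC12 family, which includes cotransporters on which SPAK and OSR1 act, 6 of 8 genes on the array entered. Slc12a2, which encodes the sodium potassium chloride cotransporter NKCC1, had signals of 3952 in ethanol, 4035 at 1 nM and 3790 at 100 nM aldosterone, and 4232 with spironolactone, all within 0.16 of each other. Slc12a4 and Slc12a7, which encode the potassium chloride cotransporters KCC1 and KCC4, differed by -0.14 and 0.10 with 100 nM aldosterone, though the next probe set of Slc12a7 differed by 0.48. Slc12a5, which encodes the neuronal potassium chloride cotransporter KCC2, was the lowest of the entered at -0.16. Slc12a8 had signals of 42.5, 82.7, 129 and 86.6, at least 2.31-fold higher with 100 nM aldosterone than with ethanol. By the brightest probe set it was the one entered gene of the family past 1.5-fold.

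The scaffolds and partners held 10 entered genes. Cab39, which encodes the SPAK activator MO25, had signals of 2433, 2670, 2354 and 2549, and its next probe set was 0.42 lower with spironolactone than with ethanol, where the brightest was 0.07 higher. Nrbp2, a pseudokinase related to the WNK family, had signals of 227, 126, 105 and 143, and was highest in ethanol, with 100 nM aldosterone 2.17-fold lower and the other 2 libraries lower as well. Tsc22d4, a partner of WNK signalling, ran the other way with 336, 574, 431 and 495, and its second probe set differed alike from ethanol, by 0.69, 0.41 and 0.89 with 1 nM, 100 nM and spironolactone against 0.77, 0.36 and 0.56. Relt, a receptor that binds SPAK, had signals of 55.6, 89.1, 76.9 and 84.6, and was at least 1.59-fold higher with 1 nM aldosterone. In Nrbp2 ethanol was the highest of the 4 libraries and in Tsc22d4 and Relt the lowest, and their differences from ethanol rest on that 1 array.

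Of the kinases and phosphatases that act on the pathway 13 of 14 entered. By the brightest probe set Sgk1 alone passed 1.5-fold, higher by 1.18 on the log2 scale with 100 nM aldosterone. The lowest with 100 nM aldosterone was Akt1, which encodes a kinase that phosphorylates WNK1, at -0.26. Its next probe set differed by -0.66 with spironolactone against ethanol. That of Akt2 differed by -0.85 with spironolactone against 100 nM aldosterone. Of the neddylation and COP9 signalosome genes, which switch cullin ligases on and off, all 23 on the array entered. With 100 nM aldosterone against ethanol the highest was Cand1, a cullin exchange factor, at 0.32, though its next probe set differed by -0.41. The lowest was Cand2 at -0.24. Rbx1, the RING subunit of the ligase, was 1.59-fold lower with 1 nM aldosterone than with ethanol from signals of 61.4 and 97.5. The 6 other cullins that entered ran from -0.04 in Cul1 to 0.06 in Cul5. The 24 other BTB adaptors of CUL3 ran from -0.20 in Kbtbd7 to 0.43 in Keap1, the adaptor of the oxidative stress factor NRF2, and the 14 other STE20 kinases from -0.25 in Stk25 to 0.24 in Stradb. By the brightest probe set, none of these last 3 lists had a gene past 1.5-fold in the 5 comparisons. Some next probe sets above the filter did pass it, and those named here are examples. Those of Klhl5, Klhl18 and Rhobtb3 differed by 1.07, 1.39 and 0.95 with 100 nM aldosterone against ethanol. Those of Rhobtb2 and Rhobtb3 differed by -0.76 and -0.79 with spironolactone against 100 nM aldosterone. In the neddylation list those of Senp8, Cops7b and Dcun1d5 differed by 0.99, -0.64 and 0.61 in that comparison. No share over all probe sets is given for 100 nM aldosterone against ethanol, so the values there have no background.

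**Figure D4:**
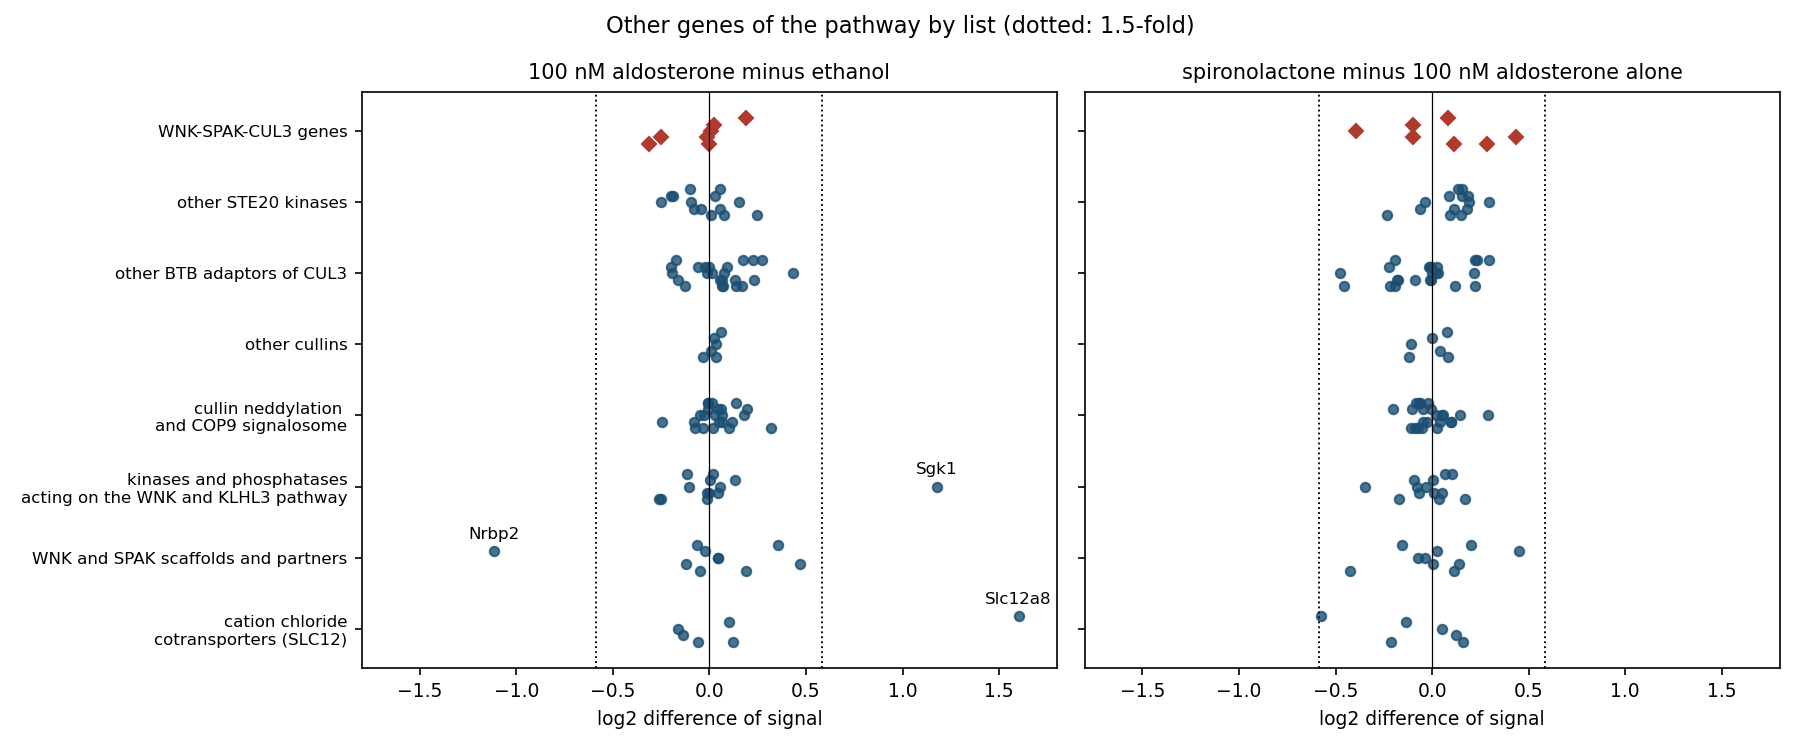
Difference of log2 signal (horizontal axis) of the entered genes of 7 pathway lists, with the 7 WNK-SPAK-CUL3 genes as diamonds, for 100 nM aldosterone against ethanol and for 100 nM aldosterone after spironolactone against 100 nM aldosterone alone. Dotted lines mark 1.5-fold and genes past them are named: Sgk1 and Slc12a8 higher (the latter from an ethanol signal under the filter) and Nrbp2 lower in the first, and none in the second.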

How the data were processed

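Total RNA was labelled as biotinylated cRNA and hybridised to 1 array per treatment. The deposited values are probe set intensity on a linear scale, which the authors made with MAS5, per the submitters' processing notes, at a scaling target that is not stated. Leaving out the top and bottom 2%, every library had a mean of 500.003, and no scaling was added. By the platform annotation 34945 probe sets carried 1 symbol, 932 several and 9160 none, and 64 control probe sets were left out. All 8 genes found matched RefSeq symbols by identifier. The brightest probe set by mean log2 signal led for each gene. Differences are of log2 signal with no pseudocount, counted past 1.5-fold. A signal under the filter was raised to it for folds given as at least. Ranks use the 501 genes nearest in mean signal.

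The 9 genes, the lists and the rules were chosen with earlier results of these data known. The other genes named are those of the 7 lists past 1.5-fold in any of 5 comparisons, the highest and lowest of each list with 100 nM aldosterone, Sgk1, Per1, Tsc22d3 and Slc12a3, and the 3 closest courses to the 2 genes with the widest span; Slc12a2, Slc12a4, Slc12a7 and Cab39 were named after their values were seen, for their roles. Genes named only for a next probe set are examples outside these rules. Alternatives were 2 scalings, 2 choices of probe set, 2 pseudocounts, 2 filters, a floor and 2 size rules. The counting was tested on simulated data. Calculations used Python 3.11.15, numpy 2.4.6 and pandas 2.3.3. The number of arrays limits the precision.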

Additional observations from a re-analysis of the deposited data

How the results depend on the processing

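The count of genes past 1.5-fold was 0 of 7 in each of the 5 comparisons. It stayed 0 under quantile normalization, centring on the median, the median over probe sets and pseudocounts of 16 and 64. The pseudocounts, the filter at the 75th percentile (which fewer of the 7 reach), the floor and the 2-fold rule could not raise the count. A pseudocount, for one, only draws a log2 difference toward 0. The 0 under these settings therefore adds no support. Without _x_at and _s_at probe sets it was 1 for spironolactone against 100 nM aldosterone, since Stk39 then rests on its second probe set at 0.60. With no filter it was 1 for 1 nM aldosterone against ethanol and 1 for 100 nM against 1 nM aldosterone, both Wnk2. A lower size rule (0.32 on the log2 scale) gave 2 for spironolactone against 100 nM aldosterone (Wnk3 and Wnk4), 2 for 100 nM against 1 nM (Wnk3 and Klhl2) and 1 for spironolactone against ethanol (Wnk4). Quantile normalization and median centring moved no single difference by more than 0.07. Over 35 differences, the sign turned in 9 with the median over probe sets, in 4 without _x_at and _s_at probe sets (all Stk39) and in 1 with centring (Wnk4 with 100 nM aldosterone against ethanol, near 0). Among the 9 was Wnk1 with spironolactone, at -0.19 against 100 nM aldosterone and -0.42 against ethanol. No paired analysis was possible because each treatment has 1 library. Dim probe sets, such as those of Wnk2 and the third of Wnk1, give bounds at most.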

Other observations

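One gene of the wider lists, Keap1, was picked after its values were seen, with 1 array per treatment and no test. Keap1, the CUL3 adaptor that holds the oxidative stress factor NRF2 in check, was higher with 100 nM aldosterone than with ethanol in both of its probe sets above the filter, by 0.43 and 0.58. With spironolactone both differed from 100 nM aldosterone alone, by -0.48 and -0.49. The brighter had signals of 622 in ethanol, 708 at 1 nM and 838 at 100 nM aldosterone, and 602 with spironolactone, so that 100 nM aldosterone alone was the highest. The 100 nM library stands in both comparisons, which are therefore not independent. With 1 nM aldosterone the probe sets parted, at 0.19 and 0.57 above ethanol. Over 5218 genes, the brightest and next probe sets shared a sign in 52.0% with 100 nM aldosterone against ethanol. With spironolactone against 100 nM aldosterone they did so in 54.4%.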
